A study of Homo sapiens with 16 samples.

Results

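Semaphorins, plexins, neuropilins, ephrins and Eph receptors are the ligands and receptors of guidance signalling, and 54 of the 19974 protein-coding genes of the annotation belong to these families by symbol. They comprise 20 semaphorins, 9 plexins, 2 neuropilins, 9 ephrins and 14 Eph receptors. Their chromatin was examined in H69, a virally transformed line of human cholangiocytes (bile duct epithelium), after 16 h in 10 ng/ml of recombinant human TGF-beta or in vehicle. Chromatin immunoprecipitation and sequencing (ChIP-seq) was done for SMAD3, a transcription factor activated by TGF-beta receptors, and for H3K27ac and H3K9ac, acetylation marks of active promoters and, for H3K27ac, also of enhancers. Each of the 3 targets had 2 TGF-beta and 2 vehicle libraries, numbered 4 and 5 for SMAD3 and 1 and 2 for the marks. Each gene was given the length of DNA that called peaks covered (peak length) between points 10 kb beyond either end of it, on the hg38 build.

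Semaphorins signal through plexins, with neuropilins as co-receptors for the secreted class 3 semaphorins, and Eph receptors are tyrosine kinases that bind ephrins on neighbouring cells. Both systems act on small GTPases, the actin cytoskeleton and cell adhesion, which steers growing axons and, in epithelia, affects cell contacts and movement. Type A ephrins are tethered by a lipid anchor, while type B ephrins cross the membrane.

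The libraries held 33700 and 34413 SMAD3 peaks with TGF-beta, against 22451 and 25268 with vehicle. The libraries of the marks differed less, at 90092 to 92714 H3K27ac peaks with TGF-beta and 82259 to 83429 with vehicle, and 54682 to 56825 H3K9ac peaks with TGF-beta and 55069 to 61297 with vehicle. SMAD3 vehicle replicate 4 stood lowest in covered length, at 11.2 Mb, beside 14.5 Mb in vehicle replicate 5. The TGF-beta replicate 2 libraries of both marks were run on sequencing lane 8 and the other libraries of the marks on lane 7, so a value without these replicates is a comparison within lane 7. The files hold no read counts, so depth is unknown, and whether replicates were separate cultures is not stated, so p-values measure only the spread between these libraries. In these bulk libraries, more cells with a mark and more mark per cell cannot be told apart. Of the 12 cholangiocyte markers, CFTR and SPP1 had no peak in any library, and 8 markers had H3K27ac in all 4 libraries. Mesenchymal markers moved in both directions: in H3K27ac 3 of 8 rose (COL1A1, THY1 and PDGFRB) and 1 fell. The fall was at ACTA2, with 3.39 and 3.10 kb with TGF-beta against 4.84 and 5.27 kb with vehicle. Of all genes tested 14.8% rose and 11.7% fell. The summed lengths of mesenchymal markers were 48.2 and 46.6 kb with TGF-beta against 28.3 and 30.3 kb with vehicle, and COL3A1, DES and DCN were at 0. The part of these markers in the results here was not tested. ALB and TTR (hepatocyte), TIE1 (endothelial), MS4A1 (leukocyte) and NEFL and STMN2 (neuronal) had no H3K27ac peak in any library, but other markers of these cells did. H3K27ac was present in all 4 libraries at 6 of 8 hepatocyte markers (2 rose and 2 fell), 4 of 8 endothelial (2 rose), 5 of 8 leukocyte (1 rose and 1 fell) and 4 of 8 neuronal markers (1 rose). Their summed lengths were 19.6 and 18.1 kb with TGF-beta against 19.2 and 21.9 kb with vehicle for hepatocyte markers, 30.1 and 30.2 kb with TGF-beta against 24.7 and 25.1 kb with vehicle for endothelial markers, 15.3 and 15.6 kb with TGF-beta against 16.2 and 18.5 kb with vehicle for leukocyte markers, and 36.0 and 35.2 kb with TGF-beta against 31.4 and 33.3 kb with vehicle for neuronal markers, and their part was not tested. In SMAD3 the treatment check TGFBI had 38.2 and 29.4 kb with TGF-beta, against 0.526 and 0.913 kb with vehicle.

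Coverage of the members was counted beside that of all genes. Peak length averaged at least 500 bp in 34 of the 54 members for SMAD3, 39 for H3K27ac and 41 for H3K9ac. Of all 19974 genes, 12508, 13994 and 14605 reached that mean, so coverage does not set the family apart. SMAD3 peaks were present in all 4 libraries for 36 of the 54 genes, H3K27ac peaks for 42 and H3K9ac peaks for 41. EPHA3, EPHA7, EPHA8, SEMA5A and SEMA6A had no peak of any target, and EPHA10, EPHB1, PLXNA4 and SEMA3D had only a single H3K9ac peak of 0.133 to 0.215 kb in 1 TGF-beta library. The longest H3K27ac coverage among plexins and neuropilins was at NRP1, the co-receptor for SEMA3A and vascular endothelial growth factor, with 52.6 and 50.6 kb with TGF-beta and 50.8 and 57.1 kb with vehicle, or 29.1% and 30.5% of its window on average. EFNA5 led the ephrins with 48.6 and 45.0 kb with TGF-beta and 43.5 and 47.0 kb with vehicle, and EPHA2 led the Eph receptors with 22.9 and 22.8 kb with TGF-beta and 20.0 and 21.7 kb with vehicle. Among semaphorins SEMA7A, a lipid-anchored ligand of plexin C1 and integrins, had 23.6 and 22.5 kb with TGF-beta against 18.4 and 19.3 kb with vehicle, which was 51.6% and 42.2% of its window. Of these 4 genes the TGF-beta libraries lay above the vehicle libraries in EPHA2 and SEMA7A, and none passed the H3K27ac test described next.

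Treatment was tested gene by gene on log2 of peak length plus 500 bp, after each library was centred on its median gene, with limma over all genes whose mean was at least 500 bp and Benjamini-Hochberg adjustment at 0.05. Log2 changes are TGF-beta minus vehicle, relative to a median shift before centring of 0.32 in SMAD3, 0.09 in H3K27ac and -0.09 in H3K9ac. In SMAD3, 10 of 34 tested members rose and 0 fell, where 12.8% of all genes tested were called, 11.2% rising and 1.68% falling, and 17 members had an unadjusted p under 0.05 in limma. In H3K27ac, 8 of 39 rose and 6 fell, where 26.4% of all genes were called, 14.8% rising and 11.7% falling. In H3K9ac, 4 of 41 rose and 6 fell, where 9.47% were called, 4.25% rising and 5.22% falling. The share of tested members called was 29.4% in SMAD3, 35.9% in H3K27ac and 24.4% in H3K9ac, and the difference from the share of all genes was not tested. The median log2 change of the tested members was 0.36 in SMAD3, against -0.03 over all genes, and it was 0.003 against -0.03 in H3K27ac and 0.02 against 0.003 in H3K9ac. In all, 22 members passed in at least 1 target, of which 3 passed in all 3 targets and 6 in 2 targets. Counts across targets were not made over all genes, so whether these are unusual cannot be told. In SMAD3, 5 of the tested members, the risers PLXND1 and PLXNA1 among them, reached the minimum mean only through their TGF-beta libraries, as did SEMA4F in H3K27ac. They had to be longer with TGF-beta to be tested at all, so these counts, shares and medians are descriptions.

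**Figure D1:**
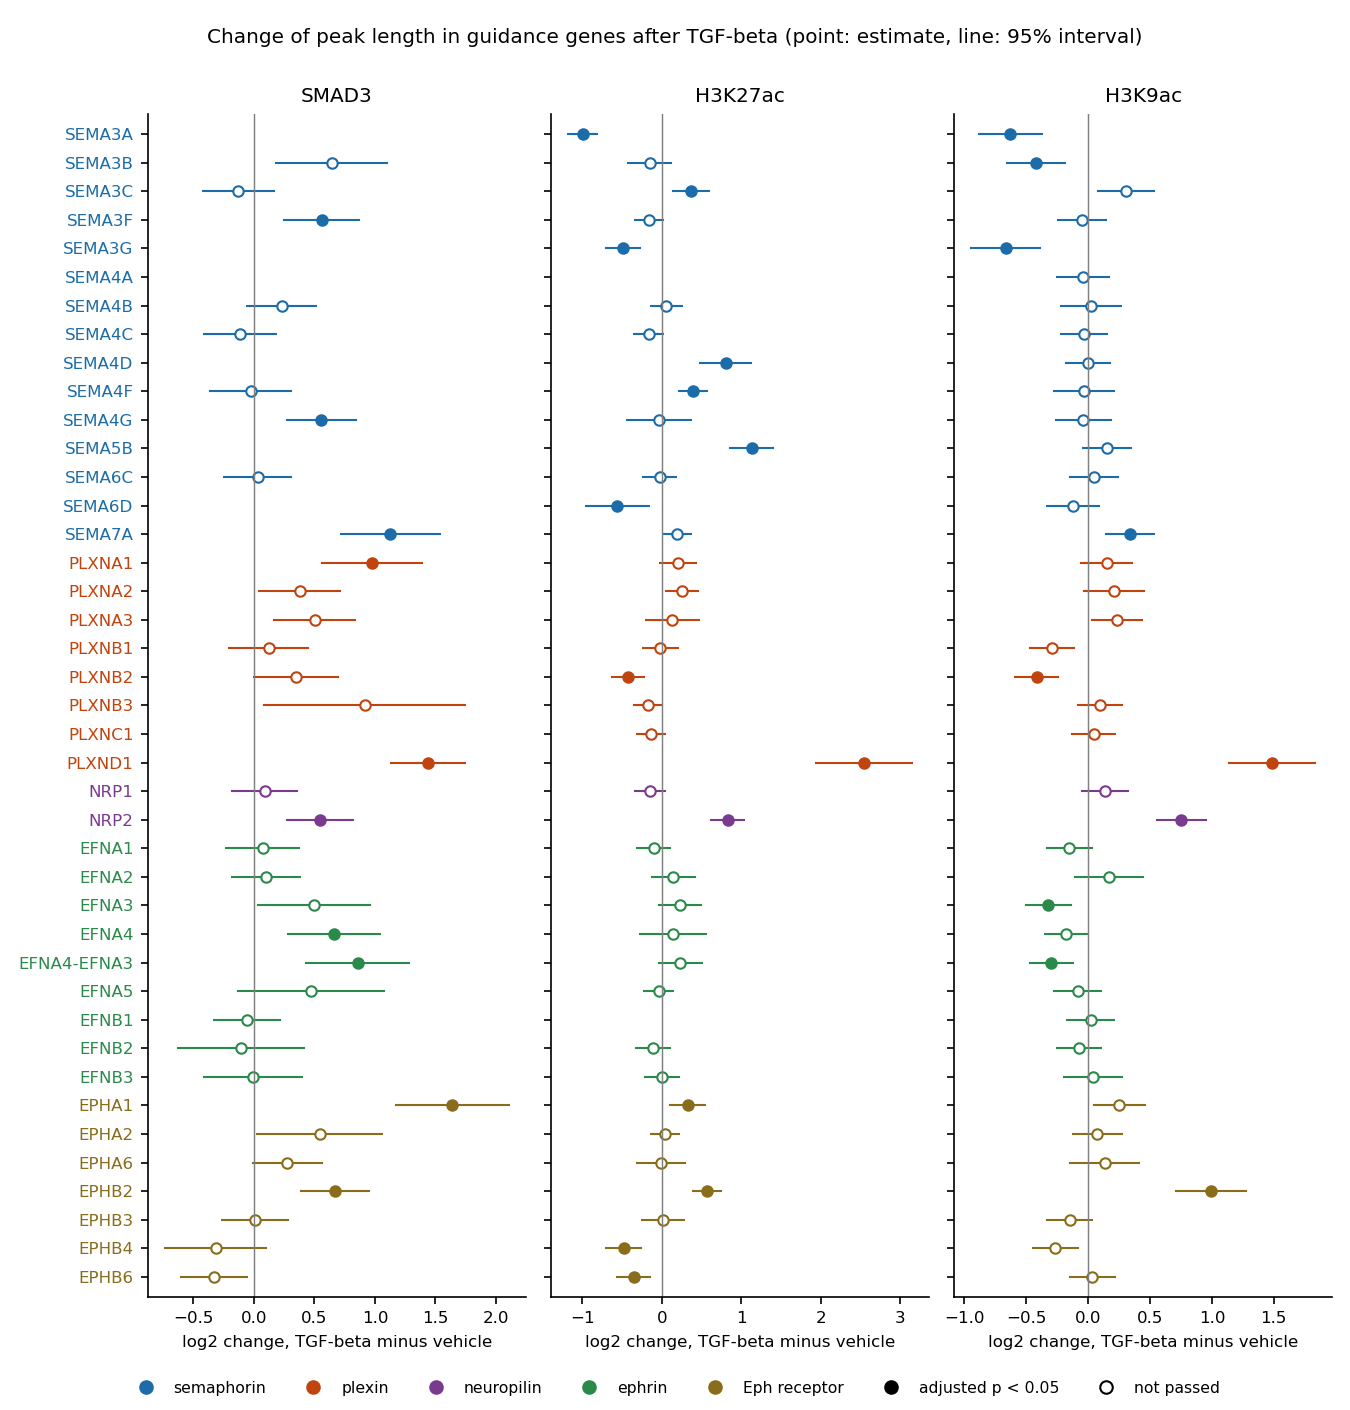
Log2 change in peak length (TGF-beta minus vehicle, x axis) of every tested guidance gene, by family, in SMAD3, H3K27ac and H3K9ac, with 95% intervals from limma and filled points for adjusted p under 0.05. PLXND1 lies farthest right in H3K27ac at 2.54 and SEMA3A farthest left at -0.99, and the SMAD3 value of PLXND1 depends on the 500 bp added, since its vehicle libraries were at 0.

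Peaks of a target were also merged into regions over its 4 libraries. A region was gained if both TGF-beta libraries had a peak there and no vehicle library did, lost in the opposite case, and constant if all 4 had one. SEMA6D, a transmembrane ligand of plexin A1, was the only member with a lost SMAD3 region: it spanned a listed start of the gene, at 0 in both TGF-beta libraries, against 438 and 628 bp in the vehicle libraries. SEMA6D was below the minimum mean in SMAD3 and was not tested, so it could not be counted among falls there. Starts of PLXND1 (323 and 536 bp with TGF-beta), SEMA4G (234 and 338 bp) and EFNA2 (343 and 215 bp) were the opposite case, with gained SMAD3 regions. EFNA2 did not pass in SMAD3 over its window (log2 change 0.10, adjusted p = 0.6 in limma). Gained SMAD3 regions were fewer at an equal number of peaks per library, as given below. The RefSeq promoter windows of these 4 starts (GRCh38.p14, 250 bases before to 50 after the start, written 5′ to 3′ on the strand of the gene) are shown with that of NRP2, where SMAD3 was called in all 4 libraries. The windows are chr3:129606627-129606926 on the minus strand for PLXND1 and, on the plus strand, chr10:100969254-100969553 for SEMA4G, chr19:1285623-1285922 for EFNA2, chr15:47718239-47718538 for SEMA6D and chr2:205682251-205682550 for NRP2. Capitals mark CAGAC, the short element that SMAD3 contacts, and GGCGC, a GC-rich element also bound by SMAD proteins, each on either strand (GTCTG and GCGCC), and capital runs longer than 5 bases are overlapping or adjoining matches.
PLXND1: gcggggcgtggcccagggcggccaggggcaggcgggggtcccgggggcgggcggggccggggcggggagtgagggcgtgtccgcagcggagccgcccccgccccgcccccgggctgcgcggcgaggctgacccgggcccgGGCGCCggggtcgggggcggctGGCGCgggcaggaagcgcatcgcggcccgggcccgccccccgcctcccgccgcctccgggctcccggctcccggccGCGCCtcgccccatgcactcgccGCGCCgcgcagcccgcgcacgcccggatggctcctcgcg
SEMA4G: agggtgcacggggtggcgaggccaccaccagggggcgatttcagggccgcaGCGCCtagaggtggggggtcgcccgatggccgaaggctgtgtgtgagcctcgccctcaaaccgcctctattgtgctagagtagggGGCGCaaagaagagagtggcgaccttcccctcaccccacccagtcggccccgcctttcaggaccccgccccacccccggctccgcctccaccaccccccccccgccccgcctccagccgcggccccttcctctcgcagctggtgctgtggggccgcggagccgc
EFNA2: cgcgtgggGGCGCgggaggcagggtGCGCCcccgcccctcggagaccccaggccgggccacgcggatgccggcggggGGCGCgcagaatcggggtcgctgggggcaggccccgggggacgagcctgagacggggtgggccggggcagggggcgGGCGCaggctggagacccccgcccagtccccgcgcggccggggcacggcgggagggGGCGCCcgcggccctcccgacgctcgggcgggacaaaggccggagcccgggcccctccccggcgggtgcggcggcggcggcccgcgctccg
SEMA6D: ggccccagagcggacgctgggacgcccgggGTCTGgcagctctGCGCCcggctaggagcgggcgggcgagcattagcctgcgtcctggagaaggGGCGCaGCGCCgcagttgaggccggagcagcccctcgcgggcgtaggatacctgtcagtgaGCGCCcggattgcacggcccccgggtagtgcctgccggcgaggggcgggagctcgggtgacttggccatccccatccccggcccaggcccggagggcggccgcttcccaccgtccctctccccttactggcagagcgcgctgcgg
NRP2: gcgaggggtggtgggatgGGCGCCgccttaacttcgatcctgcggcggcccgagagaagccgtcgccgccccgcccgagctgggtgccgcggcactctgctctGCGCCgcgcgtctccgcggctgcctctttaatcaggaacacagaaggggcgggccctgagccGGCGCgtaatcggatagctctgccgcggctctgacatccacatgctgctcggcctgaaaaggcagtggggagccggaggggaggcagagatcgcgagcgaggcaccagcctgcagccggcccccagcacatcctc

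Of these 5 windows only that of SEMA6D held CAGAC, with 1 match. All held GGCGC, with 5 matches at PLXND1, 2 at SEMA4G, 6 at EFNA2, 4 at SEMA6D and 4 at NRP2. These counts are for whole windows, and not every match lay under a SMAD3 peak. The gained region at EFNA2 began at position 1285867, and all 6 matches in that window lay before it. The gained region at PLXND1 reached upstream to position 129606776, and the capital GGCGCC lay farther upstream, outside that region. The GC content was 87.3% at PLXND1, 72.7% at SEMA4G, 85.3% at EFNA2, 74.7% at SEMA6D and 70.0% at NRP2. Promoter windows were listed for 48 of the 54 members, 75 windows in all. CAGAC was found in 49.3% of them and in 44.8% of 22132 promoters of all genes, and GGCGC in 70.7% and 60.0%. The AP-1 type element TGANTCA, where N is any base, was in 1.33% of member windows and 6.15% of all, and the palindrome GTCTAGAC was in 0 member windows and 0.217% of all.

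The 3 members called in every target were receptors, PLXND1, NRP2 and EPHB2, all rising, and the SMAD3 call of PLXND1 rests on libraries at 0 with vehicle. PLXND1 encodes plexin D1, the receptor of SEMA3E (chromosome 3, 129555214 to 129606676, read on the minus strand). SMAD3 covered 1.08 and 1.32 kb of its window with TGF-beta and is listed at 0 in both vehicle libraries, so no fold is given. It reached the minimum mean only through the TGF-beta libraries, and its p depends on the 500 bp added. H3K27ac covered 6.66 and 5.94 kb with TGF-beta, against 0.294 and 1.02 kb with vehicle, a log2 change of 2.54 ± 0.25 (SE, adjusted p = 0.000794). H3K9ac covered 3.81 and 6.01 kb with TGF-beta, against 1.48 and 1.56 kb with vehicle (log2 change 1.48 ± 0.15, adjusted p = 0.0014). In all 3 targets both TGF-beta libraries lay above both vehicle libraries. Most of the added length lay upstream of the gene. Gained regions numbered 3 in SMAD3, 6 in H3K27ac and 5 in H3K9ac, and none was lost. The gained SMAD3 regions lay over the listed start, reaching into the promoter window printed above, and at -0.4 and -5.7 kb from that start. Negative distances are upstream. The gained H3K27ac regions lay at -1.8 to -6.8 kb. Without the 10 kb flanks the H3K27ac call was lost (adjusted p = 0.0625, with 7.88e-07 to 0.0625 over its alternatives), while the H3K9ac call passed in all 19 alternatives run. The window of PLXND1 also takes in H1-8, an oocyte linker histone gene. SEMA3E, the ligand of plexin D1, had 0.208 and 0.316 kb of H3K27ac with TGF-beta and 0.237 and 0.419 kb with vehicle, and no SMAD3 or H3K9ac peak in any library.

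**Figure D2:**
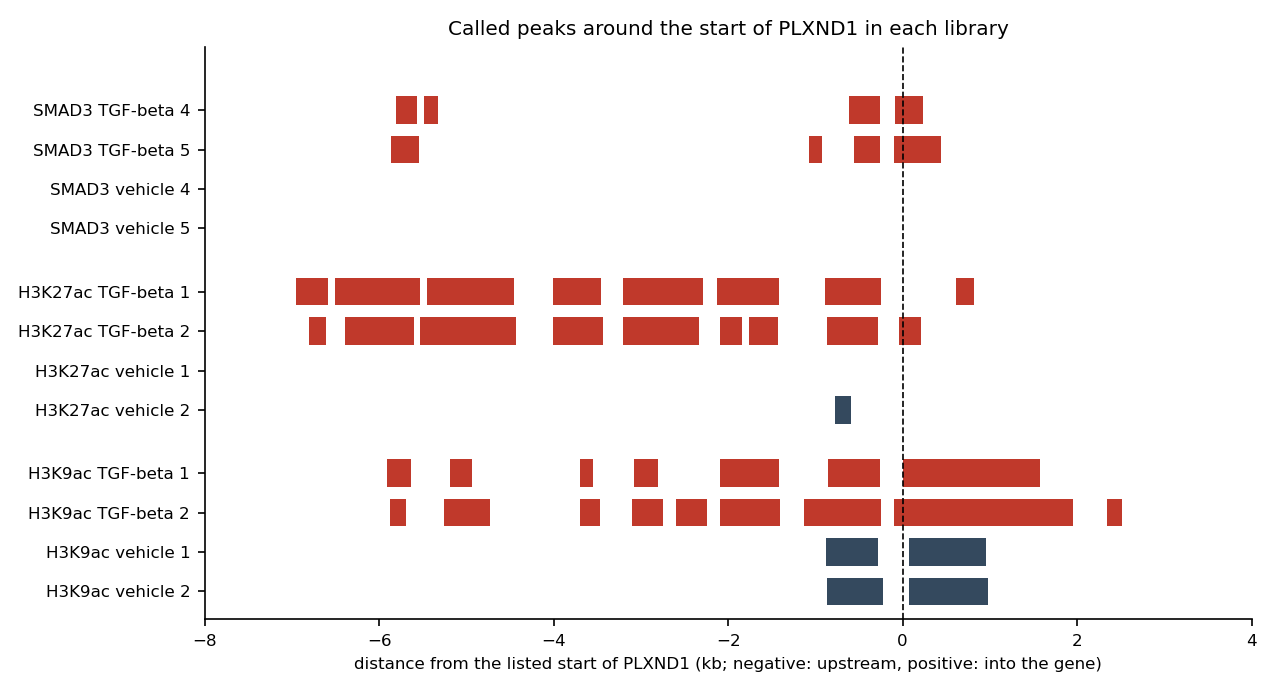
Called peaks of the 12 libraries (rows, TGF-beta in red above vehicle in dark blue for each target) from 8 kb upstream to 4 kb inside PLXND1, by distance from its listed start (dashed line). SMAD3 bars appear only in the TGF-beta rows, and farther upstream than -0.878 kb H3K27ac and H3K9ac bars are absent from the vehicle rows, while H3K9ac flanks the start in all 4 libraries.

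NRP2 is the co-receptor that prefers SEMA3F and also binds lymphatic growth factors (chromosome 2, 205682501 to 205798131). Its SMAD3 peak length was 1.55 and 1.69 kb with TGF-beta, against 0.59 and 0.738 kb with vehicle (log2 change 0.55 ± 0.12, adjusted p = 0.018). H3K27ac was 5.78 and 6.43 kb with TGF-beta, against 2.94 and 3.06 kb with vehicle (log2 change 0.83 ± 0.09, adjusted p = 0.00103). H3K9ac was 4.11 and 4.70 kb with TGF-beta, against 2.91 and 2.32 kb with vehicle (log2 change 0.75 ± 0.08, adjusted p = 0.00225). The groups did not overlap in any target. SMAD3 was already called over the start of NRP2 in all 4 libraries, and 1 SMAD3 region of 633 and 634 bp in the TGF-beta libraries was gained at 3.0 kb inside the gene, in stretches of H3K27ac of which 1 was gained and 1 constant. Of its 5 gained H3K27ac regions, those nearest the start lay at -0.3 and 2.7 kb and the others at 20.4, 24.3 and 66.6 kb, and 1 region was lost at 89.3 kb. The SMAD3 call was lost without TGF-beta replicate 5 (adjusted p = 0.0532), vehicle replicate 4 (adjusted p = 0.0773) or vehicle replicate 5 (adjusted p = 0.0557), over a range of 0.00445 to 0.0773 among its alternatives, and the calls in both marks passed in every alternative run.

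EPHB2 encodes a receptor tyrosine kinase for type B ephrins (chromosome 1, 22710838 to 22921500). SMAD3 covered 1.39 and 1.56 kb with TGF-beta, against 0.391 and 0.609 kb with vehicle (log2 change 0.67 ± 0.12, adjusted p = 0.00801). H3K27ac covered 15.7 and 14.8 kb with TGF-beta, against 9.06 and 9.92 kb with vehicle (log2 change 0.57 ± 0.07, adjusted p = 0.00231). H3K9ac covered 8.38 and 10.1 kb with TGF-beta, against 5.58 and 3.93 kb with vehicle (log2 change 0.99 ± 0.12, adjusted p = 0.00298). Here too every TGF-beta library exceeded every vehicle library. The 2 gained SMAD3 regions lay inside the gene at 36.8 and 39.4 kb from the start, within H3K27ac that was called in all 4 libraries, and the region over the start was constant, with 924 and 777 bp in TGF-beta libraries against 391 and 609 bp in vehicle libraries. Gained H3K27ac regions lay at 1.7, 24.8 and 42.6 kb. The SMAD3 call was lost without vehicle replicate 4 (adjusted p = 0.0595, with 0.00346 to 0.335 over its alternatives), and the calls in both marks passed in all alternatives run.

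**Figure D3:**
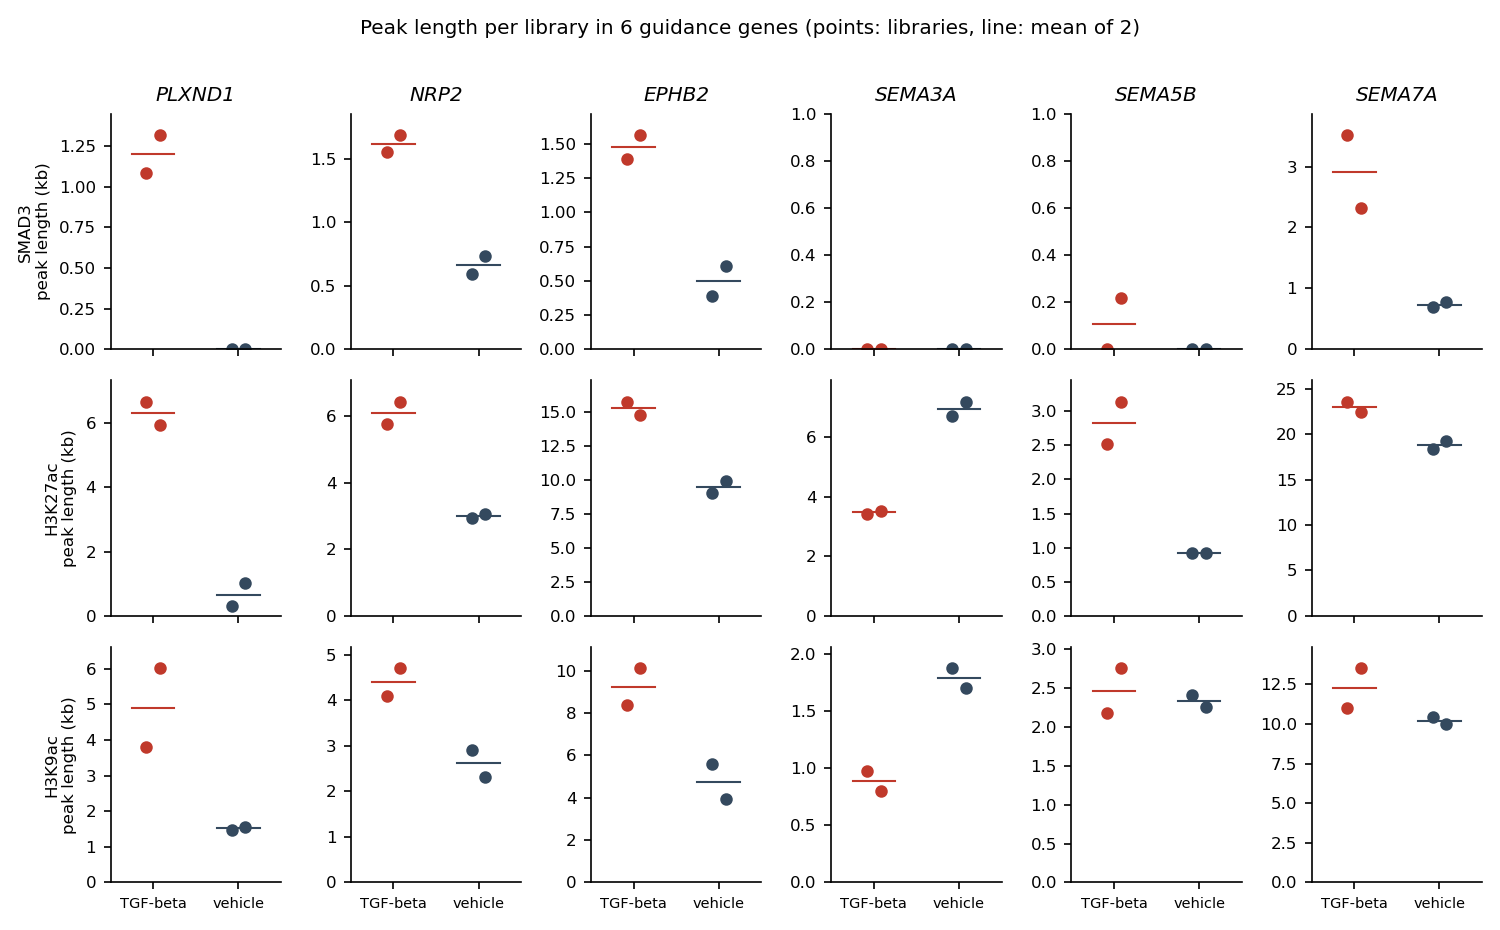
Peak length in kb (y axis, each panel to its own scale from 0) of 6 guidance genes in every library of each target, TGF-beta left and vehicle right, with the mean of 2 libraries as a line. PLXND1, NRP2 and EPHB2 are higher with TGF-beta in all rows, SEMA3A is lower in both marks and has no SMAD3 peak, and SEMA5B differs in H3K27ac but overlaps in H3K9ac.

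The SMAD3 comparison asked where the factor was found on guidance genes after TGF-beta. Semaphorins made up 3 of the 10 that rose (SEMA7A, SEMA3F and SEMA4G), plexins 2 (PLXND1 and PLXNA1), neuropilins 1 (NRP2), ephrins 2 (EFNA4 and the readthrough gene EFNA4-EFNA3, which share a window and count as 1 locus) and Eph receptors 2 (EPHA1 and EPHB2). Both TGF-beta libraries lay above both vehicle libraries in 30 of the 34 tested members, where 68.9% of all genes tested did so, and in 0 the other way round, where 1.81% of all genes did. EPHA1, an Eph receptor first found in liver cancer (chromosome 7, 143391129 to 143408856), had 7.71 and 4.72 kb with TGF-beta, against 1.04 and 1.34 kb with vehicle (log2 change 1.64 ± 0.20, adjusted p = 0.00133). Its 4 gained regions lay beyond its end, at 21.2 to 24.4 kb from its start and inside ZYX, which encodes the focal adhesion protein zyxin, yet within the EPHA1 span alone the mean was also 2.38 kb with TGF-beta and 0.424 kb with vehicle, and the call passed in all 17 alternatives run. A constant region inside EPHA1, at 15.3 kb from its start, was also longer, at 2138 and 1664 bp in TGF-beta libraries against 386 and 463 bp in vehicle libraries. SEMA7A (chromosome 15, 74409289 to 74433958) had 3.51 and 2.32 kb with TGF-beta, against 0.694 and 0.774 kb with vehicle (log2 change 1.13 ± 0.18, adjusted p = 0.00428). Of its 3 gained regions, those at 25.9 and 26.5 kb lay past the far end of the gene and that at 11.0 kb lay inside it, the call was lost in the span alone, and within 5 kb of its starts the change was -0.02. PLXNA1, a receptor for class 3 and class 6 semaphorins, had 1.56 and 1.83 kb with TGF-beta, against 0.184 and 0.662 kb with vehicle (log2 change 0.98 ± 0.18, adjusted p = 0.00866), with no gained region. The vehicle mean, 0.423 kb, was under the minimum of 500 bp, and the call was lost at an equal number of peaks per library (adjusted p = 0.132, with 0.000369 to 0.132 over its alternatives).

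The other SMAD3 calls were at SEMA3F, SEMA4G, EFNA4 and EFNA4-EFNA3. SEMA3F, a repellent ligand of NRP2, had 1.91 and 1.70 kb with TGF-beta, against 0.572 and 0.956 kb with vehicle (log2 change 0.56 ± 0.14, adjusted p = 0.0293), with gained regions at 0.8 and 5.1 kb from its start. SEMA4G had 1.58 and 1.87 kb with TGF-beta, against 0.66 and 0.756 kb with vehicle (log2 change 0.56 ± 0.13, adjusted p = 0.0213), most of it in the flanks it shares with SLF2, MRPL43 and TWNK. EFNA4, a ligand of EphA receptors, had 1.70 and 2.07 kb with TGF-beta, against 0.456 and 1.01 kb with vehicle (log2 change 0.66 ± 0.17, adjusted p = 0.0332), and EFNA4-EFNA3 had 2.30 and 2.42 kb with TGF-beta against 0.456 and 1.17 kb with vehicle (log2 change 0.86 ± 0.19, adjusted p = 0.0178). All of these were lost without vehicle replicate 4, with adjusted p of 0.168 for SEMA3F (0.00306 to 0.392 over its alternatives), 0.0723 for SEMA4G (0.0155 to 0.838), 0.178 for EFNA4 (0.00168 to 0.178) and 0.0763 for EFNA4-EFNA3 (0.000896 to 0.144). SEMA3F was also lost without TGF-beta replicate 4 (adjusted p = 0.114), and SEMA4G without TGF-beta replicate 5 (0.081) or vehicle replicate 5 (0.0752). Without vehicle replicate 4, 4 members rose, as did 706 of 12718 genes in all. Within the EFNA4 span alone the SMAD3 means were 0.541 kb with TGF-beta and 0.234 kb with vehicle, and its window also takes in ADAM15. The EFNA4 call was lost with 2.5 kb flanks (adjusted p = 0.0765 in limma) and within 5 kb of starts (0.0552). That of SEMA4G was lost with flanks of 2.5 kb (0.116) or 50 kb (0.0698) and with a minimum peak score of 5 (0.0723). At an equal number of peaks per library the SEMA4G change was 0.05 (adjusted p = 0.838). At a minimum mean of 2000 bp, 1 member and 644 of 3901 genes rose, and at an equal number of peaks per library 5 members and 624 of 12265 genes did. Without centring 12 members rose and 0 fell, where 1825 of all genes rose and 11 fell, and with scaling to total peak length 9 rose and 1 fell, where 1000 rose and 987 fell, against 1395 and 210 with median centring.

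Among members that did not pass, PLXNA3, a receptor for class 3 semaphorins, had 6.41 and 5.72 kb with TGF-beta and 2.60 and 3.93 kb with vehicle (adjusted p = 0.0569), with 3 gained SMAD3 regions at -3.5, -2.1 and 18.8 kb and neither mark there. PLXNB2, a receptor of class 4 semaphorins, also had 3 gained SMAD3 regions, with 5.83 and 4.61 kb with TGF-beta and 3.08 kb in each vehicle library (adjusted p = 0.17). The lowest log2 change of a tested member was -0.33, at EPHB6, an Eph receptor without kinase activity, with 0.51 and 0.539 kb with TGF-beta and 0.482 and 0.583 kb with vehicle (adjusted p = 0.106). A further 7 members were below the minimum length and 13 had no SMAD3 peak.

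H3K27ac asked which guidance genes gained or lost the mark of active enhancers. Both TGF-beta libraries lay above both vehicle libraries in 15 of the 39 tested members and below them in 7, where 40.7% and 20.9% of all genes tested did so. Besides the receptors above, the risers were semaphorins and EPHA1. SEMA5B, a transmembrane semaphorin with thrombospondin repeats (chromosome 3, 122909082 to 123028605), had 2.52 and 3.14 kb with TGF-beta, against 0.924 and 0.927 kb with vehicle (log2 change 1.13 ± 0.11, adjusted p = 0.00082). Its 3 gained regions lay inside the gene at 18.1, 41.0 and 61.8 kb from the nearest listed start, without SMAD3 or H3K9ac, and the call passed in all 16 alternatives run. SEMA4D, a ligand of plexin B1 (chromosome 9, 89360787 to 89498113), had 2.06 and 2.80 kb with TGF-beta, against 0.98 and 1.15 kb with vehicle (log2 change 0.81 ± 0.13, adjusted p = 0.00593). Its gained regions at 73.2, 74.4 and 123.7 kb were intragenic, the call was lost with 50 kb flanks (adjusted p = 0.0818, with 0.00116 to 0.0818 over its alternatives), and within 5 kb of its start it fell (-0.50, adjusted p = 0.0105). SEMA3C, a secreted ligand for neuropilins, had 14.9 and 15.1 kb with TGF-beta, against 9.74 and 12.0 kb with vehicle (log2 change 0.37 ± 0.09, adjusted p = 0.031), with 4 gained regions and 1 lost. SEMA4F had 0.869 and 0.794 kb with TGF-beta, against 0.442 and 0.474 kb with vehicle (log2 change 0.39 ± 0.07, adjusted p = 0.00997), in a window shared with M1AP, and was tested only through its TGF-beta libraries, since the vehicle mean of 0.458 kb was under the minimum. Within the SEMA4F span alone the means were 0.38 kb with TGF-beta and 0.35 kb with vehicle, so most of the rise lay in the flanks. EPHA1 had 5.08 and 4.74 kb with TGF-beta, against 3.73 and 3.39 kb with vehicle (log2 change 0.33 ± 0.09, adjusted p = 0.0405). The calls of SEMA3C and EPHA1 were lost without TGF-beta replicate 1 (adjusted p = 0.0796 and 0.156) or TGF-beta replicate 2 (0.127 and 0.105), that of SEMA3C also without vehicle replicate 1 (0.0999), that of EPHA1 without vehicle replicate 2 (0.134), and that of SEMA4F without TGF-beta replicate 1 (0.0593). Over all alternatives the adjusted p ranged over 0.00376 to 0.127 for SEMA3C, 0.0125 to 0.292 for EPHA1 and 0.00608 to 0.085 for SEMA4F.

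The 6 members whose H3K27ac fell were 3 semaphorins (SEMA3A, SEMA6D and SEMA3G), 1 plexin (PLXNB2) and 2 Eph receptors (EPHB4 and EPHB6). SEMA3A, the secreted repellent that signals through NRP1 and type A plexins (chromosome 7, 83955777 to 84492725), had 3.42 and 3.54 kb with TGF-beta, against 6.72 and 7.20 kb with vehicle (log2 change -0.99 ± 0.08, adjusted p = 0.000299). Its H3K9ac was 0.979 and 0.802 kb with TGF-beta, against 1.88 and 1.70 kb with vehicle (log2 change -0.63 ± 0.11, adjusted p = 0.0129), and no SMAD3 peak was called in its window in any library. The groups were separate in both marks, and the H3K27ac call passed in all 17 alternatives run, while the H3K9ac call was lost with a minimum peak score of 5 (adjusted p = 0.111, with 0.000925 to 0.111 over its alternatives). SEMA3A had 6 lost, 1 gained and 6 constant H3K27ac regions. The lost ones lay inside the gene, 3 of them at 66.6 to 70.7 kb from its lower-coordinate end around a constant region, 1 at 100.3 kb and 2 at 408.8 to 409.6 kb. The longest of them held 1320 and 1451 bp in the vehicle libraries.

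**Figure D4:**
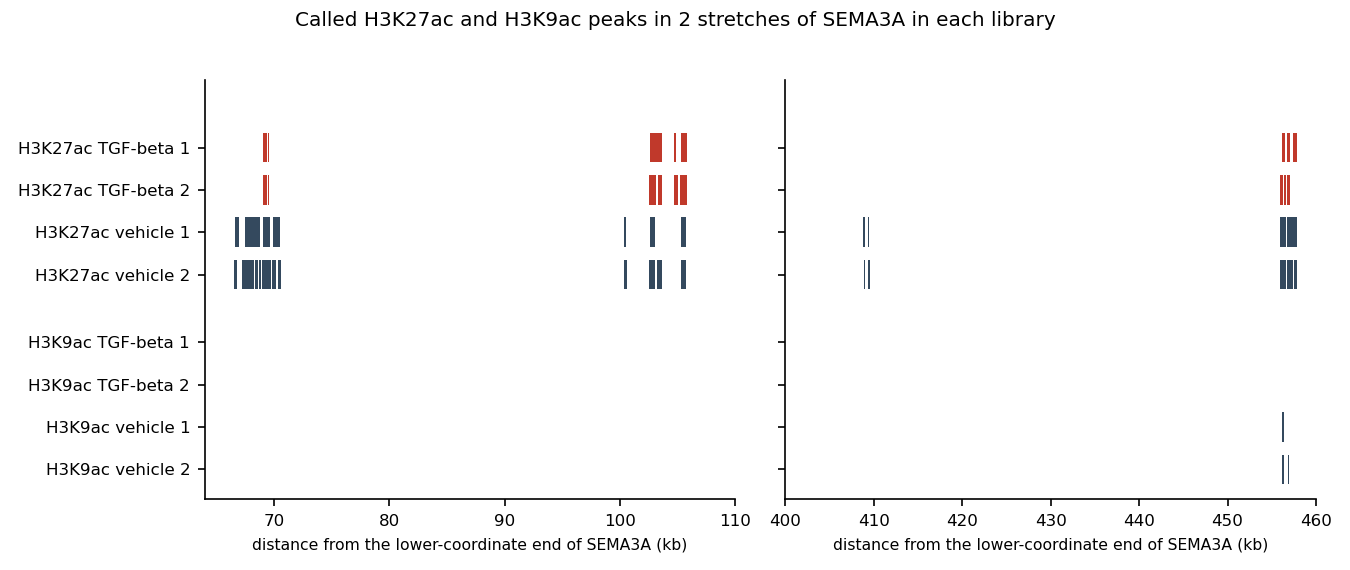
Called H3K27ac and H3K9ac peaks of each library (rows, TGF-beta in red above vehicle in dark blue) in the 2 stretches of SEMA3A that hold its lost regions, by distance in kb from its lower-coordinate end. At 66.6 to 70.7 kb the vehicle rows hold a cluster of H3K27ac bars and the TGF-beta rows 2 short bars each, in the constant region, and a constant region at 238.9 kb lies outside both stretches.

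PLXNB2 (chromosome 22, 50274979 to 50307646) had 23.0 and 21.8 kb of H3K27ac with TGF-beta, against 26.2 and 30.9 kb with vehicle (log2 change -0.42 ± 0.09, adjusted p = 0.0125), with 3 lost regions and 1 gained. Its H3K9ac fell as well, to 14.0 and 16.0 kb with TGF-beta, against 22.1 and 20.9 kb with vehicle (log2 change -0.42 ± 0.07, adjusted p = 0.0143). These falls stood beside SMAD3 that was longer in both TGF-beta libraries than in either vehicle library but did not pass. Within lane 7, without TGF-beta replicate 2, the H3K27ac value of PLXNB2 was -0.41 (adjusted p = 0.0608, with 0.000416 to 0.29 over its alternatives), and its H3K9ac call was lost without TGF-beta replicate 1 (adjusted p = 0.0756, with 0.000817 to 0.0756). EPHB4, the receptor of ephrin B2, had 10.8 and 9.36 kb of H3K27ac with TGF-beta, against 12.3 and 14.4 kb with vehicle (log2 change -0.48 ± 0.09, adjusted p = 0.0108), and within lane 7 it was -0.40 (adjusted p = 0.059, with 0.000973 to 0.113). EPHB4 also lost 5 H3K9ac regions, but its H3K9ac did not pass, with 7.47 and 8.17 kb with TGF-beta and 10.2 and 10.1 kb with vehicle (adjusted p = 0.0791).

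The remaining H3K27ac falls were at SEMA3G, SEMA6D and EPHB6. SEMA3G, a secreted semaphorin, had 3.59 and 3.62 kb of H3K27ac with TGF-beta, against 5.16 and 4.73 kb with vehicle (log2 change -0.49 ± 0.09, adjusted p = 0.00865), and 1.56 and 1.25 kb of H3K9ac with TGF-beta against 2.84 and 2.59 kb with vehicle (log2 change -0.67 ± 0.12, adjusted p = 0.0144). None of that length lay in the SEMA3G span, which was at 0 in both marks, but in flanks shared with PHF7 and TNNC1, and the calls were lost within 5 kb of the start in H3K27ac (adjusted p = 0.0702, with 0.00127 to 0.0702 over its alternatives) and with 50 kb flanks in H3K9ac (0.193, with 0.000699 to 0.193). SEMA6D had 2.60 and 1.68 kb of H3K27ac with TGF-beta, against 2.72 and 3.53 kb with vehicle (log2 change -0.56 ± 0.16, adjusted p = 0.048). EPHB6 had 1.19 and 0.959 kb with TGF-beta, against 1.32 and 1.47 kb with vehicle (log2 change -0.35 ± 0.09, adjusted p = 0.0273). SEMA6D was lost without TGF-beta replicate 2 (-0.33, adjusted p = 0.159) or vehicle replicate 2 (adjusted p = 0.152), over 0.00139 to 0.16 among its alternatives. EPHB6 was lost without TGF-beta replicate 2 (adjusted p = 0.152), vehicle replicate 1 (0.0564) or vehicle replicate 2 (0.0788), over 0.019 to 0.152, and with 50 kb flanks its change was 0.28. Without TGF-beta replicate 2, the comparison within lane 7, 6 members rose and 2 fell in H3K27ac, and without TGF-beta replicate 1, 5 rose and 6 fell. Without centring 8 rose and 3 fell, where 2507 of all genes rose and 880 fell, and with scaling to total peak length 6 rose and 10 fell, where 1734 rose and 2551 fell, against 2067 and 1631 with median centring.

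None of the 8 tested ephrins passed in H3K27ac, where their log2 changes ran from -0.11 to 0.23 and 0 had an unadjusted p under 0.05 in limma. PLXNA2, a receptor for class 3 and class 6 semaphorins, had 43.6 and 42.0 kb with TGF-beta and 31.0 and 36.6 kb with vehicle (log2 change 0.25 ± 0.09, adjusted p = 0.0713), with 4 gained and 1 lost regions. NRP1, with 3 gained and 4 lost, and EFNA5, with 3 gained and 2 lost, exchanged regions while their total length overlapped between the groups. EPHA5 had 0.845 and 1.09 kb with TGF-beta, in 2 intragenic regions, and is listed at 0 in both vehicle libraries. It was below the minimum mean length and was not tested.

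H3K9ac addressed the same question for a mark concentrated at promoters. Both TGF-beta libraries lay above both vehicle libraries in 6 of the 41 tested members and below them in 14, where 9.4% and 40.9% of all genes tested did so. Apart from PLXND1, NRP2 and EPHB2, only SEMA7A rose, with 11.0 and 13.5 kb with TGF-beta, against 10.4 and 9.99 kb with vehicle (log2 change 0.34 ± 0.08, adjusted p = 0.0482). Besides SEMA3A, PLXNB2 and SEMA3G, the falls were at SEMA3B, EFNA3 and EFNA4-EFNA3. SEMA3B, a secreted semaphorin lost in several carcinomas, had 4.88 and 6.56 kb with TGF-beta, against 8.80 and 7.83 kb with vehicle (log2 change -0.42 ± 0.10, adjusted p = 0.0425). Its window is shared with GNAI2 and LSMEM2, and its SMAD3 length, 4.63 and 3.41 kb with TGF-beta and 1.28 and 2.46 kb with vehicle, did not pass (adjusted p = 0.0724). EFNA3, a ligand of EphA receptors, had 3.32 and 3.72 kb with TGF-beta, against 5.28 and 4.45 kb with vehicle (log2 change -0.32 ± 0.08, adjusted p = 0.0447), and EFNA4-EFNA3, which holds the same peaks, 4.17 and 4.69 kb with TGF-beta against 6.35 and 5.56 kb with vehicle (log2 change -0.30 ± 0.07, adjusted p = 0.0495). At EFNA4-EFNA3 SMAD3 rose while H3K9ac fell. The H3K9ac calls of SEMA7A and EFNA4-EFNA3 were lost without any 1 of the 4 libraries, with adjusted p up to 0.214 and 0.213. That of EFNA3 was lost without TGF-beta replicate 1 (0.181), TGF-beta replicate 2 (0.112) or vehicle replicate 1 (0.127), and that of SEMA3B without TGF-beta replicate 1 (0.203) or vehicle replicate 1 (0.0509). Over all alternatives the adjusted p ran over 0.00602 to 0.33 for SEMA7A, 0.0157 to 0.89 for EFNA4-EFNA3, 0.015 to 0.418 for EFNA3 and 0.00866 to 0.203 for SEMA3B. In H3K9ac 3 members rose and 4 fell without TGF-beta replicate 2, within lane 7, while 2 fell without TGF-beta replicate 1 and 3 without vehicle replicate 1. Without centring 3 members rose and 2 fell, where 180 of all genes rose and 377 fell, and with scaling to total peak length 4 rose and 7 fell, where 691 rose and 1036 fell, against 621 and 762 with median centring.

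Whether the 2 marks changed unequally was tested by an interaction of treatment and mark over their 8 libraries. Of 41 members tested, 2 passed, where 7.44% of all genes were called, 5.44% with a positive difference (H3K27ac minus H3K9ac change). Members are called higher in H3K27ac when this difference of changes was positive and lower when it was negative, whatever the levels of the marks. The 2 were SEMA5B, with a difference of 0.97 ± 0.15 (adjusted p = 0.00703), and SEMA4D, with 0.80 ± 0.17 (adjusted p = 0.0228). H3K9ac of SEMA5B was 2.18 and 2.75 kb with TGF-beta and 2.41 and 2.25 kb with vehicle, so the groups overlapped. H3K9ac of SEMA4D was 1.40 and 1.69 kb with TGF-beta and 1.78 and 1.56 kb with vehicle, which overlapped as well. In SEMA4D the difference was lost without H3K27ac vehicle replicate 1 (adjusted p = 0.0625) or any 1 of the H3K9ac libraries (0.0562 to 0.0884), over 0.00753 to 0.353 among its alternatives. Without H3K9ac TGF-beta replicate 1, TGF-beta replicate 2 or vehicle replicate 2, 1 member was higher in H3K27ac, and without H3K9ac TGF-beta replicate 2 or vehicle replicate 1, 1 was lower. Of the receptors that rose in both marks, none passed this test: the difference was 1.05 in PLXND1 (95% interval 0.26 to 1.85, adjusted p = 0.119), 0.07 in NRP2 (-0.21 to 0.35, adjusted p = 0.786) and -0.43 in EPHB2 (-0.78 to -0.07, adjusted p = 0.155).

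Counted as merged regions rather than genes, the windows of the members held 229 SMAD3 regions, of which 35 were gained, 1 was lost and 65 were constant. Gains made up 15.3% of them, against 12.7% in the windows of all protein-coding genes. By family the gained SMAD3 regions numbered 12 in semaphorins, 10 in plexins, 3 in neuropilins, 4 in ephrins and 6 in Eph receptors, and 17 lay inside the span of their own member. Of the 35, 25 overlapped an H3K27ac region, or 71.4%, against 66.9% of the gained regions in all gene windows, and 3 lay over a listed start. Constant SMAD3 regions lay over a listed start in 37 of 65 cases, or 56.9%, against 59.4% in all gene windows. At an equal number of peaks per library, 8 regions were gained and 2 lost. Leaving out vehicle replicate 4 gave 14 lost regions and leaving out TGF-beta replicate 5 gave 2, while 74 and 90 regions were gained without TGF-beta replicate 4 and without TGF-beta replicate 5.

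In H3K27ac 51 of 573 regions were gained and 26 lost, or 8.90% and 4.54%, against 10.8% and 4.37% in all gene windows, so the family stood near the background. None of the gained or lost regions lay over a listed start. Of the 51 gained, 10 overlapped H3K9ac and 6 overlapped SMAD3. Gains were found in 20 members and losses in 14, and semaphorins held 18 of the gains and 11 of the losses. In H3K9ac 21 of 382 regions were gained and 19 lost, or 5.50% and 4.97%, against 4.27% and 5.81%. Leaving out a library raises these numbers by construction, since fewer libraries have to match. In H3K27ac 99 were gained without TGF-beta replicate 1 and 114 without TGF-beta replicate 2, and 41 were lost without TGF-beta replicate 1, 94 without vehicle replicate 1 and 46 without vehicle replicate 2. In H3K9ac 56 were gained without TGF-beta replicate 1 and 32 without TGF-beta replicate 2, and 30 were lost without TGF-beta replicate 2, 40 without vehicle replicate 1 and 71 without vehicle replicate 2.

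**Figure D5:**
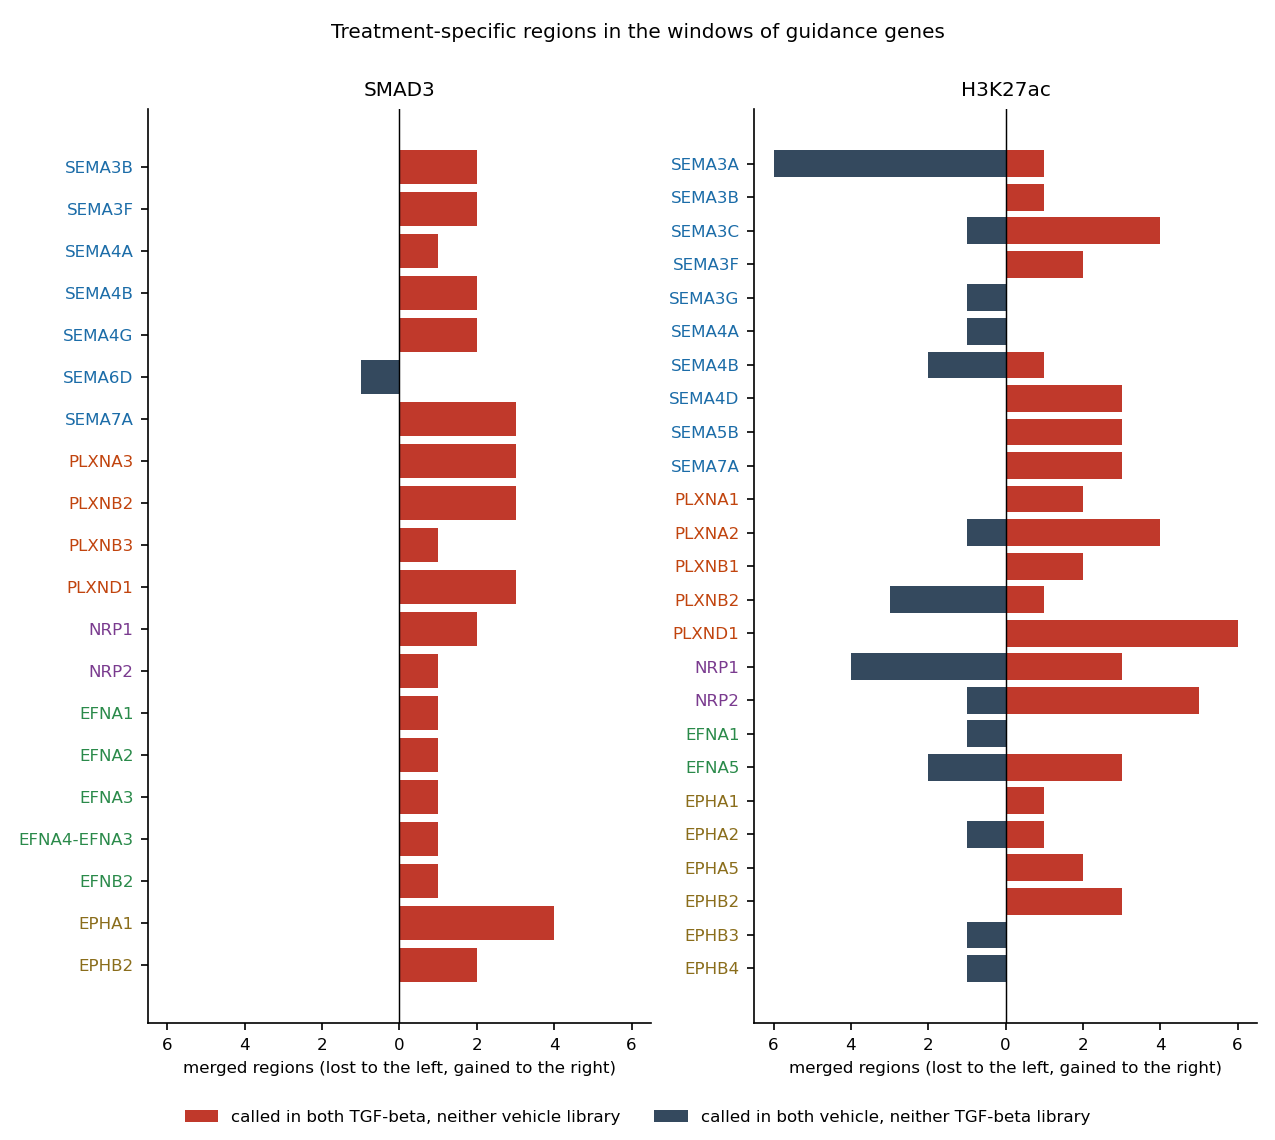
Numbers of gained regions (red, right) and lost regions (dark blue, left) in the window of each guidance gene that had any, for SMAD3 and H3K27ac, with gene names coloured by family. SMAD3 bars point right except that of SEMA6D, and in H3K27ac PLXND1 has 6 gains and no loss while SEMA3A has 6 losses and 1 gain.

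Other genes of the pathway were taken from 2 lists. Of 20 further guidance ligands and receptors (netrins, slits, repulsive guidance molecules and their receptors), 1 of 7 tested rose in SMAD3, where 11.2% of all genes did. In H3K27ac 3 of 11 rose and 2 fell, where 14.8% and 11.7% of all genes did, and in H3K9ac 2 of 13 rose and 0 fell, where 4.25% and 5.22% did. The SMAD3 riser was ROBO4, a Roundabout receptor known from endothelium and a neighbour of ROBO3, with 2.53 and 2.34 kb with TGF-beta, against 0.49 and 0.55 kb with vehicle (log2 change 1.20, adjusted p = 0.000568). SLIT3, a secreted ligand of Roundabout receptors, had 1.82 and 1.93 kb of H3K27ac with TGF-beta, against 0.475 and 0.523 kb with vehicle (log2 change 1.16, adjusted p = 0.000203), and also rose in H3K9ac. Its H3K27ac vehicle mean lay just under the minimum, so it was tested there only through the TGF-beta libraries. SLIT1 fell in H3K27ac, to 1.51 and 1.66 kb with TGF-beta, against 2.98 and 3.38 kb with vehicle (log2 change -0.90, adjusted p = 0.00063), as did ROBO1 (log2 change -0.86, adjusted p = 0.00299).

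Of 54 effectors and partners of plexins and Eph receptors, 10 of 42 tested rose and 0 fell in SMAD3, where 11.2% and 1.68% of all genes did. In H3K27ac 19 of 45 rose and 2 fell, where 14.8% and 11.7% did, and in H3K9ac 4 of 50 rose and 0 fell, where 4.25% and 5.22% did. Their median log2 change was 0.01 in SMAD3, 0.14 in H3K27ac and 0.04 in H3K9ac. LIMK2, a kinase that inactivates the actin-severing protein cofilin, had 12.9 and 12.7 kb of H3K27ac with TGF-beta, against 5.38 and 5.05 kb with vehicle (log2 change 1.13, adjusted p = 0.000285), and 3.15 and 2.67 kb of SMAD3 with TGF-beta against 0.80 and 0.775 kb with vehicle (log2 change 1.08, adjusted p = 0.0019). SRC, the tyrosine kinase that phosphorylates signalling partners of both receptor families, had 10.3 and 9.45 kb of H3K27ac with TGF-beta, against 3.37 and 4.48 kb with vehicle (log2 change 1.15, adjusted p = 0.000697). The largest SMAD3 changes in this list were at MICAL2 (1.28), LIMK2, RRAS (0.99), RHOD (0.96) and GIPC1 (0.94), which act in actin oxidation, small GTPase signalling and trafficking of plexins. In H3K27ac VAV2 (1.03), CHN1 (0.84) and TIAM1 (0.81), regulators of Rac, followed SRC and LIMK2, and the 2 that fell were ERBB2 (-0.35) and ROCK2 (-0.31). The 4 that rose in H3K9ac were LIMK2, SRC, RHOD and VAV2.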

How the data were processed

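BWA, Picard, MACS2, bedtools and the hg38 build are named in the submitters' processing notes, while versions, the cutoff of the caller and its control are not given there. The authors deposited peaks for each library with a score that is a -log10 p or q value, and which of the 2 is not stated. Scores served only to rank or filter peaks, and the 4 inputs were not used.

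Members were protein-coding RefSeq genes (GRCh38.p14) chosen by symbol, and members, lists and tests were chosen with earlier results of these data known. Chromosomes 1 to 22 and X were kept. The log2 of peak length plus 500 bp was fitted with limma 3.58.1 in R 4.3.3 for genes averaging 500 bp or more, with libraries centred on the median of genes covered in all of them. An exact permutation test of 2 against 2 libraries cannot go below 0.333. Regions joined peaks sharing 1 bp or more. The fit was run on simulated data with normal noise and without the minimum mean. That run does not cover the filter, and its outcome is not given here. Windows of 29 members take in other genes. Library values are given for members that passed in any target, for those with at least 3 gained or 3 lost SMAD3 or H3K27ac regions, and for the member of each family with the most H3K27ac. At most 5 genes per list and target are named, by size of change. Roles of genes are background, and promoters are from RefSeq. Counts and figures were made in Python 3.11.15 (numpy 2.4.6, pandas 2.3.3, matplotlib 3.10.9). Alternatives were other pseudocounts, filters, scalings, windows, scores and limma settings, each library left out, and a replicate block.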

Additional observations from a re-analysis of the deposited data

Results flagged for a closer look

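The change after TGF-beta differed between the acetylation marks in 2 of 41 guidance genes tested, by a treatment by mark term in limma adjusted over all genes. Of all genes tested 7.44% were called, so the count does not set the family apart. In SEMA5B the H3K27ac change exceeded the H3K9ac change by 0.97 on the log2 scale (95% interval 0.63 to 1.31, adjusted p = 0.00703), with both TGF-beta libraries above both vehicle libraries in H3K27ac (2.52 and 3.14 kb with TGF-beta against 0.924 and 0.927 kb with vehicle) and overlapping groups in H3K9ac. In SEMA4D the difference was 0.80 (0.42 to 1.18, adjusted p = 0.0228). Without the flanks of 10 kb both genes passed, and with flanks of 50 kb neither did. The gained H3K27ac regions of both genes lay 18.1 to 123.7 kb from the nearest listed start.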

How the results depend on the processing

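Of 36 calls of members, 9 passed in every alternative that gave a value: EPHA1 and PLXND1 in SMAD3, EPHB2, NRP2, SEMA3A and SEMA5B in H3K27ac, and EPHB2, NRP2 and PLXND1 in H3K9ac. PLXND1 in SMAD3, at 0 in both vehicle libraries, gave a value in 9 alternatives, against 17 for EPHA1. It reached the minimum mean only through its TGF-beta libraries, so it had to be longer there to be tested. Its place among the 9 is therefore a description and no support for the call. Over 625 alternative values, 490 stayed past the threshold in the same direction, 129 kept the direction only and 6 reversed. Gene spans without a flank and the crossed block were added after seeing the data. The causes of the shifts below were not tested, and counts that became others need not hold the same genes.

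The 10 SMAD3 rises became 1 at a minimum mean of 2000 bp, 4 within 5 kb of starts, 5 at equal peak numbers, 5 without flanks and 4 to 13 with a library left out. The 0 SMAD3 falls (17 members had an unadjusted p under 0.05 in limma, in either direction) became 1 without a filter, 1 at 2000 bp, 1 scaled to total length and 3 with 50 kb flanks, and stayed 0 with a library left out. The 8 H3K27ac rises became 5 at 2000 bp, 5 at starts, 5 without flanks and 5 to 9 with a library left out, and the 6 falls numbered 3 without centring, 10 scaled to total length, 1 at starts (SEMA4D, which rose over its whole window) and 2 to 6 with a library left out. The 6 H3K9ac falls became 3 with a pseudocount of 100 bp, 3 without a filter, 2 without centring, 2 with 2.5 kb flanks, 1 at starts, 3 at equal peak numbers, 2 without flanks and 2 to 5 with a library left out. Members whose change was higher in H3K27ac than in H3K9ac, 2 at first, became 5 with a pseudocount of 2000 bp and 5 without centring. They became 0 with 50 kb flanks, 1 at starts and 4 with trended robust limma, and leaving out a library moved the number both ways. Those lower, 0 at first, became 1 each with 2000 bp, without a filter, with 50 kb flanks, at a score of 5 and with trended robust limma, and 0 to 1 with a library left out.

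Gained SMAD3 regions (35) became 8 at equal peak numbers, 23 with 2.5 kb flanks, 71 with 50 kb and 37 to 90 with a library left out, and lost ones (1) became 2 at equal peak numbers, 2 with 50 kb and 1 to 14. Gained H3K27ac regions (51) became 79 with 50 kb and 68 to 114 with a library left out, and lost ones (26) became 37 to 94. Gained H3K9ac regions (21) became 33 with 50 kb and 27 to 56, and lost ones (19) became 9 at a score of 5, 12 with 2.5 kb, 39 with 50 kb and 21 to 71.

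Changes that reversed were SEMA7A in SMAD3 (-0.018), SEMA4D in H3K27ac (-0.50), EFNA4-EFNA3 in H3K9ac (0.028) and the SEMA4D difference between marks (-0.24) within 5 kb of starts, SEMA3F in SMAD3 (-0.24) at equal peak numbers and EPHB6 in H3K27ac (0.28) with 50 kb flanks. Same-numbered libraries did not deviate together (correlations of -0.0689 in SMAD3, -0.0163 in H3K27ac and -0.136 in H3K9ac). Each value compares 1 pair of TGF-beta libraries with 1 pair of vehicle libraries. For the marks the TGF-beta pair also spans lanes 7 and 8. Whether equal numbers share a culture therefore cannot be told. With the replicate block 10 members rose and 0 fell in SMAD3, 8 and 6 in H3K27ac, 4 and 5 in H3K9ac, and 2 differed between marks. A crossed block gave 3 and 4 in H3K9ac. Depth is unknown, so peaks missed in a shallow library and absent ones cannot be told apart.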
